A study of Mus musculus with 12 samples.

Results

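Transcripts that changed when neural progenitor cells (NPCs) carried a retroviral Mkl1 transgene were examined, with most attention to genes other than the well-known smooth muscle targets. The comparison comprised the 4 arrays titled Mkl1 and EGFP, 2 of each, out of 12 arrays in the series, and was chosen by these titles and not by any measured value. Both groups were mouse NPCs obtained by in vitro differentiation and grown on gelatin in a medium with epidermal growth factor (EGF) and basic fibroblast growth factor, and no age, sex or strain is given. The Mkl1 group received the open reading frame of Mkl1 in a retroviral vector, and the EGFP group received enhanced green fluorescent protein (EGFP, a neutral marker) in its place. According to the study's methods, the vector also carried a puromycin resistance gene, so both groups share infection and resistance, and the cells were either an NPC line made from embryonic stem cells or one derived from cells that had been reprogrammed with doxycycline-inducible factors. Which line served on these arrays is not given in the sources used here. The other 8 arrays held NPCs labelled as overexpressing Srf, and NPCs with a short hairpin RNA against EGFP (shEGFP) or against Actb, the β-actin gene (shActb_1 and shActb_2). The labels number the replicates but do not say that they came from separate cultures, and the study describes duplicates of its Actb knockdown arrays as technical, so the p-values measure the spread between arrays, which may be technical.

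Mkl1, also known as MRTF-A, is a coactivator of the transcription factor Srf. It binds monomeric actin, which keeps it out of the nucleus, and it is released when actin polymerizes. Together with Srf it acts at DNA elements called CArG boxes, which lie in genes of the contractile apparatus, the actin cytoskeleton and cell adhesion. NPCs are dividing cells of the neural lineage that do not normally build contractile fibres.

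Total RNA was measured on 1-colour Agilent arrays with 55681 probes, of which 28026 (50.3%) could be given a gene symbol. Between 35697 and 36935 probes per array (64.1% to 66.3%) were well above background and no spot was saturated. Levels are log2 signals relative to the 75th percentile of the array, and a difference of 1 is a 2-fold change. The 4 arrays shared a slide, but EGFP lay in slide row 2 and Mkl1 in row 1, so position and group cannot be told apart. The EGFP arrays differed by over 2-fold at 2.74% of probes and the Mkl1 arrays at 0.499%.

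The targeted gene did not settle the label. The brighter probe of Mkl1 (listed as Mrtfa, NM_001082536) read 3.63 and 3.31 on the EGFP arrays and 3.72 and 3.56 on the arrays labelled Mkl1, so the groups overlapped. Its log2 change was 0.17 (SE 0.11, adjusted p = 0.313, limma), and the second probe gave 0.20 (SE 0.08, adjusted p = 0.12). Where these probes lie relative to the transgene is not known here, and a probe outside the open reading frame checks nothing. The known target genes did separate the groups: Acta2, smooth muscle α-actin, was higher by 6.93 (SE 0.08), Cnn1, calponin, by 6.56 (SE 0.07), Myl9, a myosin light chain, by 3.60 (SE 0.08) and Tagln, transgelin, by 2.32 (SE 0.22). Srf itself (NM_020493) read 2.45 and 2.87 in EGFP and 3.81 and 3.87 in Mkl1, a rise of 1.18 (SE 0.13, adjusted p = 0.00121). Its second probe was higher by 0.71 (SE 0.06, adjusted p = 0.000522), which is under 2-fold, and without EGFP replicate 1 the first probe gave 0.97.

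Of 35775 probes tested, 996 (2.78%) changed at an adjusted p under 0.05 and over 2-fold. With 1 probe per gene, 602 of 15691 genes changed (3.84%), with 294 higher in Mkl1 (1.87%) and 308 lower (1.96%). At an adjusted p under 0.05 alone, 2777 genes were higher and 1769 lower, so most differences that could be measured were smaller than 2-fold. Of the changed genes, 476 were well above background on all 4 arrays, 64 were below it on both EGFP arrays and 34 on both Mkl1 arrays. These 64 and 34 entered the test through the arrays of the other group alone. Counts in gene lists that hold such genes therefore follow in part from the filter. Among 116 changed genes with more than 1 tested probe, every tested probe passed for 51, and for no gene did probes pass in opposite directions. Without EGFP replicate 2 the number of changed probes was 1801. With another background correction (normexp) 367 probes changed. Of the 106 genes named by rule, 27 lost their call under it, all by falling under 2-fold and among them Tinag, Cadm2, Slitrk1, Angptl1, Fhl1, Fst, Il1rl1, Kcnmb1, Kcnf1, Lamc3, Lama2, Rspo2, Dchs1, Pcdh9, Unc5c, Adamts5, Ccl11 and Sod3, and the fit to 4 arrays lost 64. A fit to these 4 arrays alone gave 126 changed probes (87 genes), and with the replicate number as a block 7 genes were left: Acta2, Cnn1, Actg2, Acta1, Actc1, Sprr2k and Lce1i. Increases made up 46.4% of the changed probes, against 64.1% under quantile normalization and 74.1% when arrays were centred on their medians. This centring shifted the median change of the tested probes from -0.03 to 0.19.

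**Figure D1:**
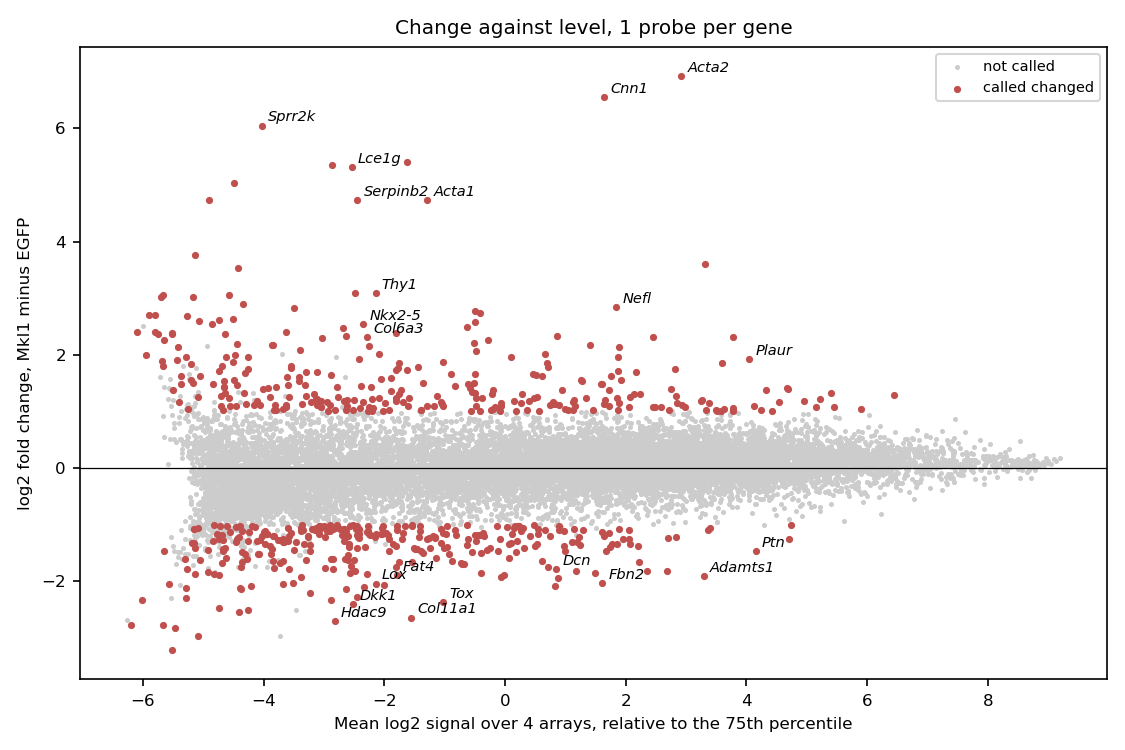
Log2 fold change (Mkl1 minus EGFP, y axis) against the mean log2 signal over the 4 arrays relative to the 75th percentile (x axis) for the 15691 genes tested, 1 probe per gene. The 602 genes called changed are red, and they lie across the range of levels in both directions.

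Outside the smooth muscle list, 2 actins of striated muscle showed the same pattern. Acta1, skeletal α-actin (NM_009606), read -3.69 and -3.62 on the EGFP arrays and 1.08 and 1.09 on the Mkl1 arrays, a change of 4.74 (SE 0.12, adjusted p = 3.38e-06). Actc1, cardiac α-actin, read -6.96 and -7.05 against -1.86 and -2.08. It was not well above background in EGFP, so it was at least 12.2-fold higher. Actin genes resemble each other closely in sequence, so part of the signal of a probe may come from another actin, which was not tested.

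Most other genes of the sarcomere did not pass the test. Of 31 striated muscle genes tested, 5 rose and 1 fell (19.4%, against 3.84% of all genes). The median log2 change was -0.06, against 0.02 for all genes. Median centring turned this median to 0.16 and quantile normalization to 0.05. The other members that rose were Ankrd1, a stress-responsive muscle ankyrin protein, with 2.18 (SE 0.09), and, named after their values were seen, Tnnt3, a fast skeletal troponin, with 1.5 and Ryr1, a calcium release channel, at least 2.36-fold. Myl1, a fast myosin light chain, was lower by -1.22. Actc1 and Ryr1 were below background on both EGFP arrays and entered the test through the Mkl1 arrays alone.

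Promoters were searched for the CArG box (CC, 6 bases A or T, GG, no mismatch, both strands) in RefSeq windows of GRCm38.p6, from 250 bases before to 50 after each start site. Windows were found for 12468 of the 15691 genes tested. A match lay in 14 of 276 promoters of genes that rose (5.07%), in 2 of 288 promoters of genes that fell (0.694%) and in 229 of 15678 promoters of all genes tested (1.46%), while 535 of all 32851 promoters held one (1.63%). A match describes the sequence and does not show that the site is bound. The stretches below, before the start site, belong to named genes whose promoters held a match, which stands in capitals. Acta1, Actc1, Fhl2, Srf and Dusp5 rose and Lama2 fell.
Acta1: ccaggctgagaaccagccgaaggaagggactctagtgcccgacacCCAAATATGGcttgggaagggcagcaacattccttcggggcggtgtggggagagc
Actc1: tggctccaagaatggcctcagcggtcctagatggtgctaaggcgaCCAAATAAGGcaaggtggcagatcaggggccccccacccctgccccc
Fhl2: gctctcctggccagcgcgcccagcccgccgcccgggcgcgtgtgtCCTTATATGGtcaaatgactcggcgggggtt
Srf: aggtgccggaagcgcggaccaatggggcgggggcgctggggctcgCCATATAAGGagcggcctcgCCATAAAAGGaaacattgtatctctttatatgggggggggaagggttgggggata
Dusp5: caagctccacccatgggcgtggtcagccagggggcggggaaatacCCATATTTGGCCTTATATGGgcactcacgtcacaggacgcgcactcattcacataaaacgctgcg
Lama2: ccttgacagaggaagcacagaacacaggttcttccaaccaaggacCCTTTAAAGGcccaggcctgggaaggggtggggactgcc

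These stretches lie at chr8:123894794-123894893 (minus strand, Acta1), chr2:114052876-114052967 (minus, Actc1), chr1:43163962-43164037 (minus, Fhl2), chr17:46556170-46556289 (minus, Srf), chr19:53529018-53529127 (plus, Dusp5) and chr10:27616943-27617026 (minus, Lama2). The match lay 73 bases before the start site in Acta1, 47 in Actc1, 31 in Fhl2 and 39 in Lama2. Srf and Dusp5 held 2 matches each, with those of Srf 82 and 62 bases before the start site and those of Dusp5 lying side by side at 82 and 72. A second Fhl2 window also held a match, 96 bases before its start site. The other genes that rose with a match were Myl9, Fhl1 and Rhoj (at its start site) and, outside the naming rule, Ppbp, Glipr2, Hopx, H2-M11 and Myo1e. Tinag was the other gene that fell.

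The TEAD motif (GGAATG, both strands) lay in 56 of 276 promoters of genes that rose (20.3%), 42 of 288 of those that fell (14.6%) and 2016 of 15678 of all tested (12.9%), and in 14.7% of all promoters. The AP-1 motif (TGANTCA) lay in 25 of 276 (9.06%), 19 of 288 (6.6%) and 917 of 15678 (5.85%), and in 7.81% of all promoters. No test was run on these shares.

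**Figure D2:**
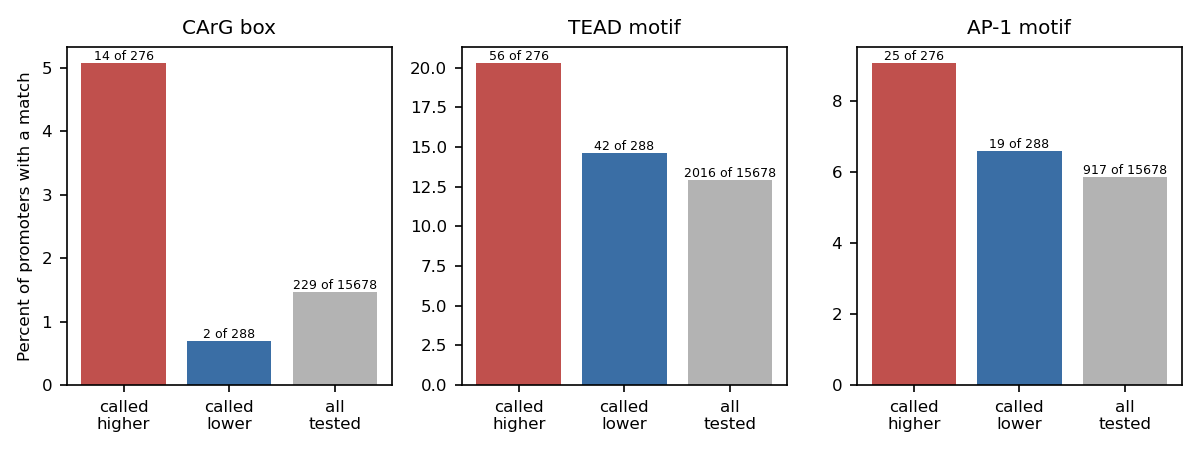
Percent of promoters (y axis) with a match to the CArG box, the TEAD motif or the AP-1 motif, for genes called higher, genes called lower and all genes tested, with the counts above the bars. The share with a CArG box was 5.07% for genes that rose and 1.46% for all genes tested.

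The largest increases among genes well above background on all 4 arrays, outside the smooth muscle list, were of several kinds. Serpinb2, an intracellular and secreted inhibitor of plasminogen activators (NM_011111), read -4.71 and -4.93 in EGFP and -0.20 and 0.06 in Mkl1, a change of 4.74 (SE 0.20, adjusted p = 2.9e-05). Thy1, a surface glycoprotein of neurons, T cells and fibroblasts, read -3.94 and -3.44 against -0.56 and -0.64, a change of 3.09 (SE 0.15). Nefl, the light neurofilament chain, read 0.14 and 0.71 against 3.11 and 3.41, a change of 2.84 (SE 0.20). At each of these genes the gap between the groups was wider than the gap between the arrays of either group. They were picked as the largest changes, so this follows from the choice.

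Genes usually described in blood cells also rose. Skap1, an adaptor in T-cell receptor signalling, read -3.88 and -3.74 against -1.46 and -1.49, a change of 2.34 (SE 0.08), and Lat2, a membrane adaptor of lymphoid and myeloid cells, rose by 2.38 (SE 0.21). Of 10 macrophage and microglia markers, 7 were well above background on both arrays of each group, Cx3cr1 and Trem2 were below it on all 4 arrays, and none rose. Their summed linear level, in units of the array's 75th percentile, was 9.05 and 9.47 in EGFP and 10.9 and 9.78 in Mkl1. Aif1, a macrophage marker, was lower by -1.51 (SE 0.36, adjusted p = 0.0253), a call that was lost without EGFP replicate 2 (-1.16) and without either Mkl1 array. The part of blood cells in the rise of Skap1 and Lat2 was not tested.

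Further increases were in Optc, a small proteoglycan of the eye, with 3.10 (SE 0.42), in Arc, an activity-regulated neuronal gene, with 2.77 (SE 0.20), and in Sh3bgr, a small protein of heart and skeletal muscle, with 2.74 (SE 0.10) and 2.80 (SE 0.11) at its probes. Nkx2-5, a homeodomain factor of heart development, read -3.44 and -3.82 in EGFP and -1.10 and -1.05 in Mkl1, a change of 2.55 (SE 0.12, adjusted p = 4.99e-05). Tmem171 rose by 2.58 (SE 0.14) and Glipr1 by 2.48 (SE 0.24). Collagen chains Col5a3 and Col6a3, described below, completed the 15.

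**Figure D3:**
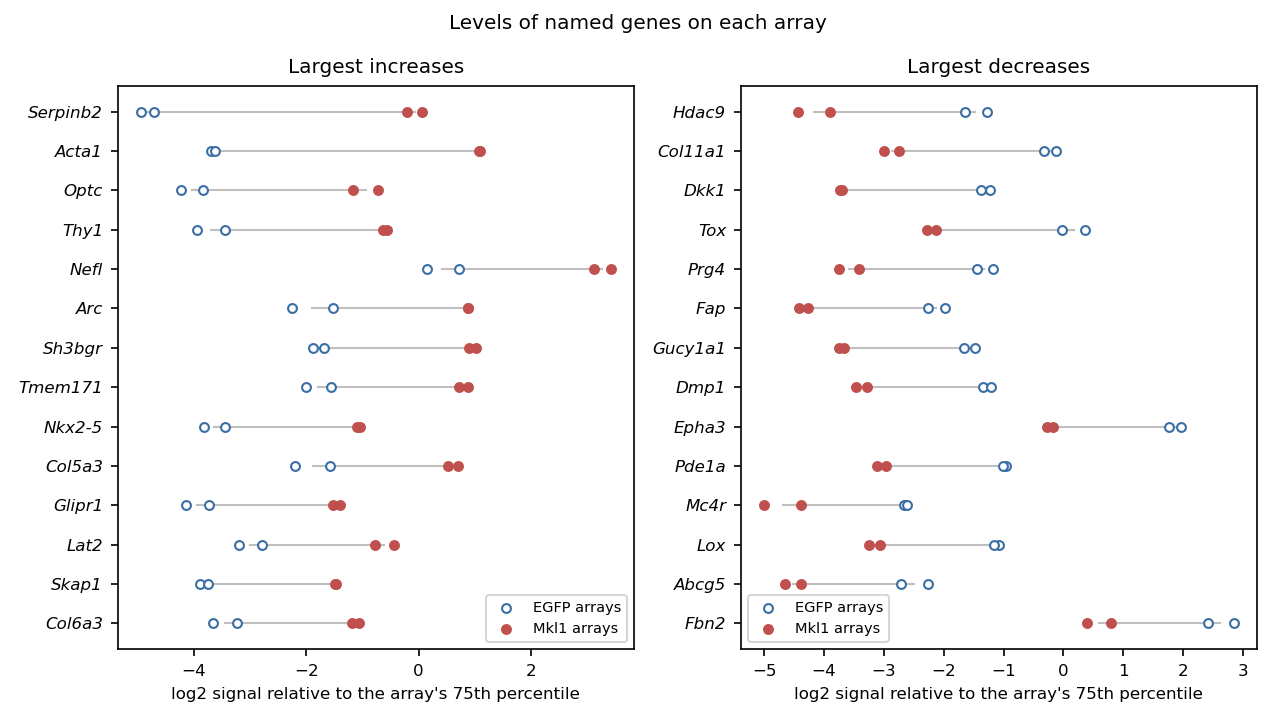
Log2 signal relative to the array's 75th percentile (x axis) on each of the 4 arrays for 14 of the 15 largest increases (left) and 14 of the 15 largest decreases (right) outside the smooth muscle list, with open points for EGFP and filled points for Mkl1. In every row both points of one group lie on the same side of both points of the other. This follows from the choice of genes, since it held at all 602 called genes, and at 61.4% of all tested probes.

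The largest decreases included regulators of transcription. Hdac9, a class IIa histone deacetylase that represses Mef2 target genes, read -1.28 and -1.65 in EGFP and -4.44 and -3.90 in Mkl1, a change of -2.71 (SE 0.19, adjusted p = 0.00027). Tox, a nuclear factor of lymphocyte development that is also found in neural progenitors, read 0.36 and -0.02 against -2.13 and -2.28, a change of -2.37 (SE 0.13). At both genes the gap between the groups was wider than the gap between the arrays of either group. These genes too were picked as the largest changes, so this follows from the choice.

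Enzymes and membrane proteins were among the largest decreases too. Gucy1a1, a subunit of the nitric oxide receptor guanylate cyclase, read -1.47 and -1.67 against -3.66 and -3.75, a change of -2.14 (SE 0.08, adjusted p = 2.02e-05). Pde1a, a phosphodiesterase that degrades cyclic nucleotides, read -0.96 and -1.01 against -2.96 and -3.12, a change of -2.06 (SE 0.09). Mc4r, a melanocortin receptor, was lower by -2.05 (SE 0.23) and Abcg5, a sterol transporter subunit, by -2.03 (SE 0.17). Of the proteins of matrix and mineralized tissue, Prg4, the joint lubricant, was lower by -2.27 (SE 0.15), Dmp1, dentin matrix protein, by -2.10 (SE 0.19), and Fap, a surface protease of activated fibroblasts, by -2.21 (SE 0.19).

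Mef2c, a muscle and neuronal factor and the other member of the Hdac9 and Mef2 list that fell, was lower by -1.02 (SE 0.08, adjusted p = 0.000314), just past 2-fold. It was under 2-fold with quantile normalization (-0.92), with arrays centred on their medians (-0.80), with normexp (-0.91) and without Mkl1 replicate 1 (-0.98). Of the 7 genes tested in that list 0 rose and 2 fell (28.6%, against 3.84% of all genes).

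Genes that came up from background on the Mkl1 arrays included parts of the cornified envelope, the protein coat of the outer skin. Lce1g (NM_025413) read -4.77 and -5.62 in EGFP and 0.09 and 0.15 in Mkl1, at least 39.9-fold higher (adjusted p = 0.000106). Lce1i (NM_029667) read -5.67 and -5.40 against -0.23 and -0.15, at least 37.3-fold higher. Its other probe, also not well above background in EGFP, read -5.01 and -5.32 against -3.61 and -3.41. Sprr2k (NM_011477), a small proline-rich envelope protein, read -7.02 and -7.08 against -1.04 and -0.96, at least 23.9-fold higher. Each bound sets the Mkl1 mean against the EGFP arrays, taking on each the higher of the probe's own signal and the dimmest signal that was still well above background. For Lce1g the bound equals the fold between the measured means, because its own signals were the higher.

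After these values were seen, the other genes of both families were examined. Of 20 Lce genes with a probe 12 were tested, and of 14 Sprr genes 4. Besides Lce1g and Lce1i, the Lce genes called higher were Lce3b, Lce3c and Lce1f. Their bounds were smaller, at 1.55-fold for Lce3b, which is under 2-fold, 2.34-fold for Lce3c (limma, adjusted p = 0.0493) and 2.48-fold for Lce1f. These 5 Lce genes and Sprr2k were below background on both EGFP arrays and entered the test through the Mkl1 arrays alone. Their number therefore follows in part from the filter. Of 9 members above background on all 4 arrays, 0 changed past the threshold at the gene's brightest probe. Lce1c read -3.66 and -3.89 in EGFP and -1.82 and -1.80 in Mkl1 (change 1.97, SE 0.69, adjusted p = 0.0841), and Lce3d, Lce1a2, Lce1j, Lce1k, Lce1m, Sprr1a, Sprr4 and Sprr2a2 gave -0.28 to 0.44. At its dimmer probe Sprr2a2 was lower, by -1.24. The members of each family are similar in sequence, and cross-hybridization between them was not tested. Prss46, a serine protease gene, came up at least 8.24-fold.

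Bounds in the other direction were smaller. Tinag, a basement membrane glycoprotein of kidney tubules, was at least 5.03-fold lower, Cadm2, a synaptic adhesion molecule, 4.36-fold, Slitrk1, a neuronal membrane protein, 4.30-fold, the transcript 8430436N08Rik 4.08-fold and Angptl1, a secreted angiopoietin-like protein, 3.40-fold. The calls of Cadm2, Slitrk1 and Angptl1 were lost without any 1 of the 4 arrays (adjusted p from 0.0629 to 0.193), and that of 8430436N08Rik without EGFP replicate 1 (0.0537) or Mkl1 replicate 2 (0.0812). At its other probe Cadm2 gave -0.80 (SE 0.40).

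**Figure D4:**
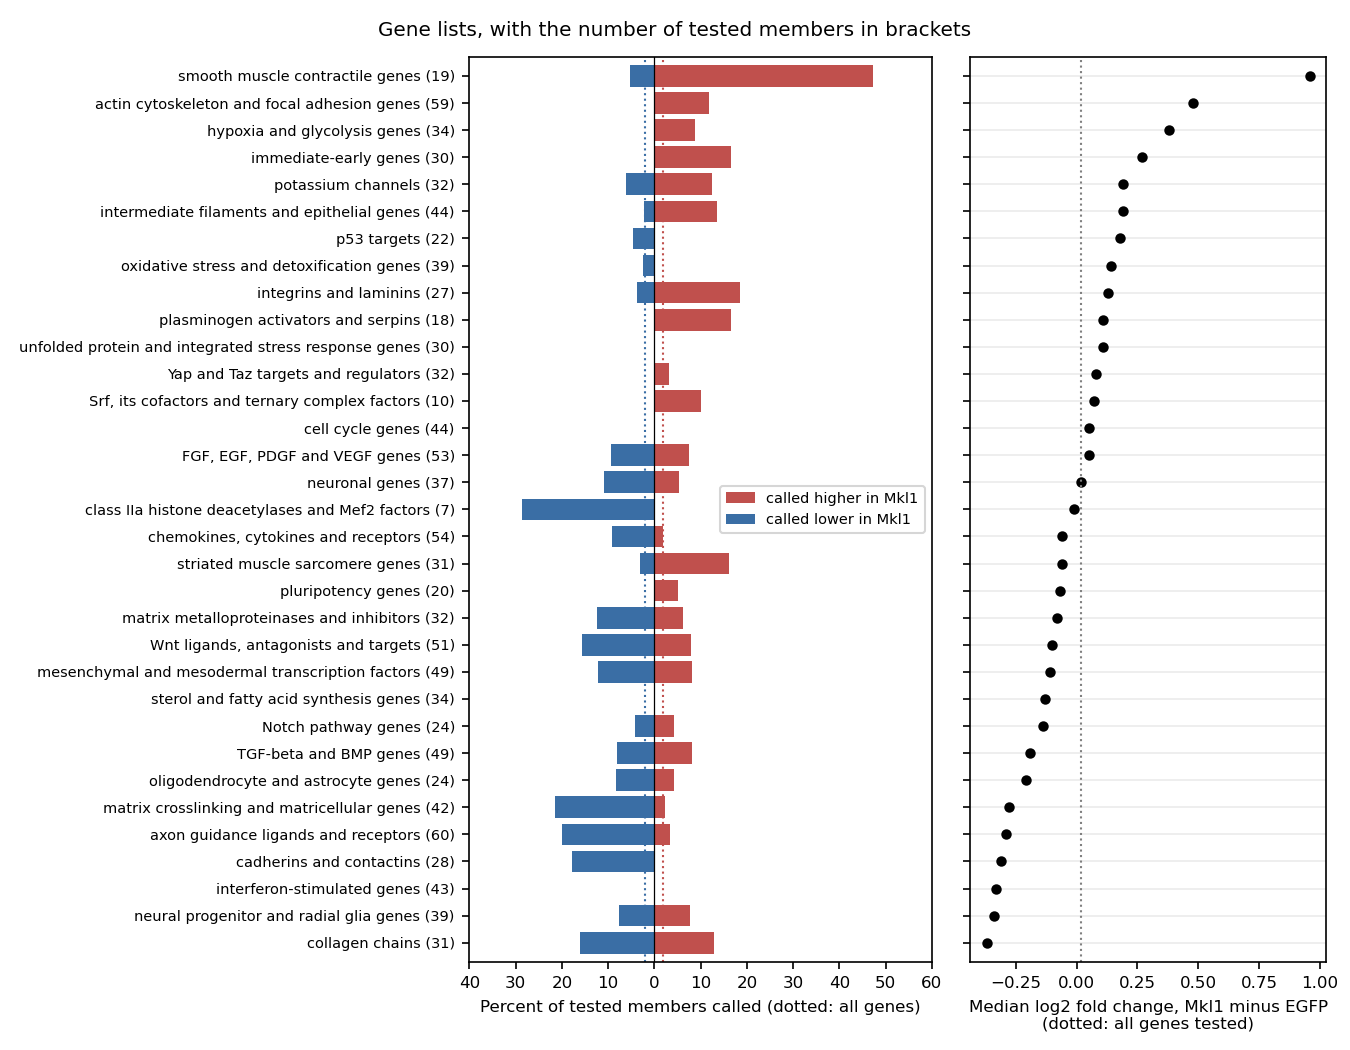
Percent of tested list members called higher (red) or lower (blue) in Mkl1 (left panel) and the median log2 fold change of the list (right panel), with the number tested in brackets and dotted lines at the values of all genes tested. Among the lists plotted, which leave out the cell type markers, the smooth muscle list has the highest median (0.96) and the collagen list the lowest (-0.37).

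Genes of the actin cytoskeleton and focal adhesions, the structures that couple actin to the matrix, were raised by small amounts and broadly. Of 59 tested, 7 rose past 2-fold and 0 fell (11.9%, against 3.84% of all genes). A positive change was seen in 53, and the median was 0.48. At an adjusted p under 0.05 alone 45 were higher and 1 lower, against 2777 and 1769 of all 15691 genes. Centring arrays on their medians gave 12 rises (median 0.70), and the fit to 4 arrays gave 1. Tgfb1i1, the focal adhesion protein Hic-5, read 1.04 and 1.54 in EGFP and 3.64 and 3.58 in Mkl1, a change of 2.32 (SE 0.14). Fhl2, a LIM domain cofactor, read 2.64 and 2.69 against 4.53 and 4.53, a change of 1.86 (SE 0.06, adjusted p = 8.1e-06). Fhl1, a LIM domain protein of muscle, was at least 3.81-fold higher. The others that rose were Actn1, Cotl1, Pdlim5 and Cap1, by 1.08 to 1.3. At its dim second probe Tgfb1i1 gave 1.20 (SE 0.84).

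Surface receptors for the matrix moved with them in part. Of 27 integrins and laminins, 5 rose and 1 fell (22.2%, against 3.84% of all genes, median 0.13). Itga5, a subunit of the fibronectin receptor, read -0.33 and 0.13 in EGFP and 1.13 and 1.16 in Mkl1, a change of 1.25 (SE 0.15, adjusted p = 0.00206). Lamc3, a laminin chain, was higher by 1.22 (SE 0.10), while Lama2, the laminin chain of muscle and peripheral nerve basement membranes, was lower by -1.22 (SE 0.16) and -1.48 (SE 0.17) at its probes. Without EGFP replicate 1 Lama2 gave -0.98, and 3 genes of the list rose and 0 fell, the same counts as under normexp.

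Rhoj, a Cdc42-related GTPase of endothelial cells, read -1.34 and -1.47 in EGFP and 0.83 and 0.88 in Mkl1, a change of 2.26 (SE 0.06, adjusted p = 6.32e-06). Cdc42ep3, an effector of Cdc42, was higher by 1.78 (SE 0.09). Of 32 targets and regulators of Yap and Taz, coactivators that also respond to actin tension, Ankrd1 rose and 0 fell (median 0.08), a share of 3.12% that is near the 3.84% of all genes. Under median centring 5 rose.

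The collagen chains split. Of 31 tested, 4 rose and 5 fell (29%, against 3.84% of all genes), and 24 had a negative change (median -0.37). Col5a3, a minor fibrillar chain, read -2.20 and -1.57 in EGFP and 0.70 and 0.52 in Mkl1, a change of 2.50 (SE 0.19). Col6a3, a microfibrillar chain, was higher by 2.32 (SE 0.19). Col11a1, a fibrillar chain of cartilage, read -0.13 and -0.33 against -2.74 and -3.0, a change of -2.64 (SE 0.14, adjusted p = 8.1e-05).

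The basement membrane chains Col4a1 and Col4a2, named here after their values were seen, rose by 1.15 and 1.12, while Col4a6 was lower by -1.09. Also lower were Col8a2 by -1.79, Col2a1 by -1.31 and Col24a1, below background in Mkl1, at least 2.02-fold. Leaving out EGFP replicate 1 reduced the counts to 2 higher and 2 lower, and leaving out Mkl1 replicate 2 reduced those lower to 2. Those lower were 3 under median centring and under normexp.

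Among genes that crosslink or organize the matrix, 9 of 42 tested fell and 1 rose (23.8%, against 3.84% of all genes). At an adjusted p under 0.05 alone 16 were lower and 3 higher, against 1769 and 2777 of all 15691 genes (list median -0.28). Lox, the enzyme that crosslinks collagen and elastin, read -1.07 and -1.16 in EGFP and -3.06 and -3.25 in Mkl1, a change of -2.04 (SE 0.21, adjusted p = 0.00102), with -1.72 (SE 0.22) at its other probe. Fbn2, a microfibril protein, read 2.84 and 2.41 against 0.80 and 0.40, a change of -2.03 (SE 0.17). Dcn, the collagen-binding proteoglycan decorin, read 1.79 and 1.69 against -0.07 and -0.04, a change of -1.79 (SE 0.06, adjusted p = 1.54e-05).

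The remaining members that fell, Mgp, Sparcl1, Ogn, Mfap4, Fbln5 and Has2, did so by -1.66 to -1.03. Tnc, the matrix protein tenascin-C, was the member that rose, by 1.41 (SE 0.39, adjusted p = 0.0407), at a probe well above background on 1 of the EGFP arrays. Its other probe gave 0.14, and the call was lost without any 1 of the 4 arrays (1.17 to 1.65).

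Dcn is also a marker of fibroblasts, and the whole marker list of fibroblasts and pericytes, the cells that wrap small vessels, was examined beside it. Of 10 markers 8 were well above background on both arrays of each group, with Lum and Rgs5 below it on all 4 arrays. Among these 8, Dcn, Pdgfrb and Prrx1 fell, Thy1 rose and the median was -0.73. The summed linear level of the 10 was 186 and 185 in EGFP and 128 and 108 in Mkl1. The arrays measured whole cultures, so fewer cells of a type and less RNA per cell cannot be told apart, and the part of such cells in the falls of matrix genes was not tested. Of 10 endothelial markers 7 were below background on all 4 arrays (Cdh5, Emcn, Erg, Sox17, Sox18, Tek and Tie1), and none of the 3 tested changed.

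Transcripts of genes for proteolysis outside the cell changed at defined members, and protease activity was not measured. Of 18 plasminogen activators and serpins, which generate or restrain plasmin, 3 rose and 0 fell (16.7%, against 3.84% of all genes, median 0.11). Besides Serpinb2 these were Plaur, the urokinase receptor, with 2.73 and 3.42 in EGFP and 4.92 and 5.10 in Mkl1 (change 1.93, SE 0.21), and Plau, urokinase itself, with 0.34 and 0.75 against 1.62 and 1.88 (change 1.21, SE 0.15, adjusted p = 0.00229). Ligand, receptor and inhibitor were thus all higher on both Mkl1 arrays.

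Of 32 metalloproteinases and inhibitors, 2 rose and 4 fell (18.8%, against 3.84% of all genes). The median of -0.08 was turned to 0.14 by median centring. Adam8, a membrane-bound protease, read 1.05 and 0.99 against 2.67 and 2.79, a change of 1.71 (SE 0.07). Adamts1, a secreted protease that cleaves proteoglycans, read 4.51 and 4.00 against 2.50 and 2.18, a change of -1.91 (SE 0.18). Adamts5, a cartilage aggrecanase, was lower by -1.64 (SE 0.29), a call lost without Mkl1 replicate 2 (adjusted p = 0.0634), and its other probe was not well above background in Mkl1. Without that array 2 members fell, as under median centring and normexp.

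Secreted signals and their modulators changed in both directions. In the Wnt list 4 of 51 genes rose and 8 fell (23.5%, against 3.84% of all genes). The median was -0.10, and 0.12 under median centring. Dkk1, a secreted antagonist that blocks the Wnt coreceptors (NM_010051), read -1.38 and -1.23 in EGFP and -3.74 and -3.70 in Mkl1, a change of -2.41 (SE 0.09, adjusted p = 2.02e-05). Wnt7b, a Wnt ligand, read -0.55 and 0.19 against 1.51 and 1.70, a change of 1.78 (SE 0.21). Rspo2, a secreted enhancer of Wnt signalling, read -3.49 and -3.58 against -5.07 and -5.32, a change of -1.66 (SE 0.18).

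The other ligands of the Wnt list that fell were Wnt5b, Wnt6 and Wnt16, and the other modulators Rspo3, Dkk2 and Sfrp2, all by -1.45 to -1.16, while Fzd9, Lgr6 and Apcdd1 rose by 1.03 to 1.08. Antagonists and enhancers therefore both stood among the genes that fell. The list had 1 rise and 7 falls without EGFP replicate 1, 2 and 7 without Mkl1 replicate 2, 4 and 4 under median centring and 2 and 3 under normexp.

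In the TGF-beta and BMP list 4 of 49 genes rose and 4 fell (16.3%, against 3.84% of all genes). The median was -0.19, which median centring turned to 0.03. Inhbb, a chain of activin, read -0.60 and -0.08 in EGFP and 1.55 and 1.80 in Mkl1, a change of 2.01 (SE 0.17, adjusted p = 0.000495). Fst, follistatin, which binds activin, was at least 3.35-fold higher. Bmp4, a BMP ligand, read 1.62 and 1.83 against 0.29 and 0.23, a change of -1.46 (SE 0.09).

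Fstl3, a relative of follistatin, and Nbl1, a BMP antagonist, also rose, by 1.23 and 1.04, and Smad6, an inhibitor of BMP signalling, Tgfb2 and Ltbp2 fell by -1.39 to -1.08. Among these called members a chain of activin and 2 genes for activin-binding proteins were thus higher, and a BMP ligand and a BMP feedback gene lower. They were picked by their calls, and their grouping was not tested. Fst was below background on both EGFP arrays and entered the test through the Mkl1 arrays alone, and it gave 0.65 under normexp. The number that fell was 2 without EGFP replicate 1 and under median centring.

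Of 53 growth factor, receptor and feedback genes 4 rose and 5 fell (17%, against 3.84% of all genes), with a median of 0.05. Under median centring 7 rose and 2 fell (median 0.27), and under normexp 2 and 3. Ereg, epiregulin, a ligand of the EGF receptor, read -1.66 and -1.45 against -0.26 and 0.06, a change of 1.45 (SE 0.18). Dusp5, a phosphatase induced by ERK signalling, was higher by 1.31 (SE 0.20). Pdgfrb, the PDGF receptor of mural cells, read 0.12 and 0.21 against -1.31 and -1.72, a change of -1.69 (SE 0.14, adjusted p = 0.000479).

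Hbegf, another ligand of the EGF receptor, and Dusp4 rose by 1.07 and 1.02, and Vegfc, Fgf7, Fgf1 and Igf1 fell by -1.26 to -1.02. The number that rose was 2 without EGFP replicate 1, and the number that fell was 3 without Mkl1 replicate 2. In the Notch list Nrarp, a feedback inhibitor, rose by 1.22 (SE 0.22) and Hey1, a Notch target, fell by -1.15 (SE 0.10). That was 1 of 24 each way (8.33%, against 3.84% of all genes). The call of Nrarp was lost without EGFP replicate 1 (0.85) and without Mkl1 replicate 2 (1.08, adjusted p = 0.0634). That of Hey1 was under 2-fold when arrays were centred on their medians (-0.93).

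Of 54 chemokines, cytokines and receptors 1 rose and 5 fell (11.1%, against 3.84% of all genes). The median was -0.06, and 0.16 under median centring. Median centring gave 5 rises and 3 falls, quantile normalization 4 and 6, and normexp 0 and 2. Il1rl1, the receptor of interleukin-33, was at least 4.45-fold higher, and it entered the test through the Mkl1 arrays alone. Its other probe, also not well above background in EGFP, read -5.57 and -5.31 against -3.94 and -3.78. Cxcl5, a neutrophil chemokine, read 1.5 and 1.38 in EGFP and -0.13 and -0.27 in Mkl1, a change of -1.64 (SE 0.09). Ccl11, eotaxin, was lower by -1.49 (SE 0.33), a call that was lost without EGFP replicate 1 (adjusted p = 0.0811) and without Mkl1 replicate 2 (0.121). The other falls were in Il7, Cxcl1 and Osmr, by -1.22 to -1.02.

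Immediate-early genes respond within minutes to growth signals. Of 30 tested 5 rose and 0 fell (16.7%, against 3.84% of all genes, median 0.27). At an adjusted p under 0.05 alone 12 were higher and 3 lower, against 2777 and 1769 of all 15691 genes. Quantile normalization gave 4 rises and 1 fall. Fosl1, a subunit of the AP-1 factor, read 1.56 and 2.32 in EGFP and 3.53 and 3.85 in Mkl1, a change of 1.75 (SE 0.23). Ptgs2, cyclooxygenase-2, read -1.34 and -1.38 against 0.04 and 0.21, a change of 1.49 (SE 0.10, adjusted p = 0.000221). The others were Arc, above, and Mafk and Jun, by 1.03 and 1.02. Without Mkl1 replicate 2 the number was 3.

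Transcription factors of mesoderm and skeleton moved in both directions, with 4 of 49 higher and 6 lower (20.4%, against 3.84% of all genes). Their median was -0.11, and 0.11 under median centring. Besides the rise of Nkx2-5 and the fall of Tox, Meox2, a homeodomain factor of somites and limb muscle, read -1.56 and -1.82 against -3.26 and -3.38, a change of -1.63 (SE 0.12). Eya2, Foxc2 and Sox9 rose by 1.04 to 1.3, and Dlx5, Foxc1, Prrx1 and Prrx2 fell by -1.61 to -1.09. These counts became 1 higher and 7 lower without EGFP replicate 1, and 2 and 5 under normexp.

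Of 60 genes that guide axons, the semaphorins, ephrins, netrins, slits and receptors, 12 fell and 2 rose (23.3%, against 3.84% of all genes). At an adjusted p under 0.05 alone 25 were lower and 6 higher, against 1769 and 2777 of all 15691 genes (list median -0.29). Epha3, an ephrin receptor, read 1.96 and 1.76 in EGFP and -0.18 and -0.27 in Mkl1, a change of -2.08 (SE 0.11, adjusted p = 8.45e-05). Sema7a, a membrane-anchored semaphorin that binds integrins, read 0.99 and 1.29 against 2.57 and 2.83, a change of 1.56 (SE 0.13).

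Unc5c, a netrin receptor, was lower by -2.55 (SE 0.55, adjusted p = 0.0175) and by -0.94 (SE 0.42) at its other probe, and its call was lost without EGFP replicate 1 (adjusted p = 0.0749) and without Mkl1 replicate 2 (0.104). The remaining falls covered secreted cues (Slit2, Ntn1, Sema3a, Sema3c and Sema3d), the membrane-anchored Ntng1 and receptors (Epha7, Robo2, Plxnb1 and Unc5a), by -1.47 to -1.01, and the other rise was in Epha2, by 1.15. The number of falls was 7 without EGFP replicate 1, 6 under normexp and 5 when arrays were centred on their medians.

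Of 28 cadherins and contactins 0 rose and 5 fell (17.9%, against 3.84% of all genes, median -0.31). Fat4 and Dchs1, a giant cadherin and its ligand in planar cell polarity, read -0.81 and -0.88 against -2.54 and -2.93 for Fat4 (change -1.89, SE 0.13) and -2.16 and -2.06 against -3.82 and -3.92 for Dchs1 (change -1.76, SE 0.20). Pcdh9, a protocadherin, was lower by -1.40 (SE 0.11), but its dimmer probes gave 0.10 and -0.48. The other members that fell were Pcdh10 and Cdh10, by -1.36 and -1.26. Under normexp 2 of the list fell.

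The cells' own lineage was then examined. Of 12 NPC markers 11 were well above background on both arrays of each group. So were 7 of 10 macrophage and microglia markers and 8 of 10 fibroblast and pericyte markers, so this alone does not identify the cells. The summed linear level of the NPC markers was 319 and 334 in EGFP and 353 and 364 in Mkl1, to which bright genes contribute most. Of the 11 NPC markers 7 had a negative change (median -0.34). Of these markers 5 were lower and 1 higher at an adjusted p under 0.05 alone, and past 2-fold 1 each way. Nes, the intermediate filament nestin, read 3.71 and 4.22 against 5.14 and 5.10, a rise of 1.16 (SE 0.15), and it gave 0.90 without EGFP replicate 1. Slc1a3, the glutamate transporter of radial glia, read 1.82 and 1.52 against 0.43 and 0.17, a fall of -1.37 (SE 0.12). Sox2, the factor that maintains progenitors, read 1.70 and 1.34 against 0.58 and 0.67, a change of -0.89 (adjusted p = 0.00578) that is under 2-fold.

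In the longer list of 39 NPC and radial glia genes 3 rose and 3 fell (15.4%, against 3.84% of all genes). A negative change was seen in 26 (median -0.34). Ptn, the growth factor pleiotrophin, read 5.12 and 4.64 against 3.40 and 3.43, a change of -1.46 (SE 0.17), with -1.29 (SE 0.11) at its other probe. At an adjusted p under 0.05 alone, 18 of the 39 were lower and 5 higher, against 1769 lower and 2777 higher of all genes. Without EGFP replicate 1 the list had 1 rise and 2 falls.

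Neuronal and glial genes changed in both directions. Of 37 neuronal genes 2 rose and 4 fell (16.2%, against 3.84% of all genes, median 0.02). Map2, a dendritic microtubule protein, read 1.03 and 0.84 against -0.55 and -0.56, a change of -1.49 (SE 0.09), and Stmn2, a microtubule destabilizer of growth cones, was lower by -1.46 (SE 0.15), in contrast to the rise of Nefl. Of 24 oligodendrocyte and astrocyte genes 3 changed (12.5%): Sparcl1 fell by -1.41 (SE 0.10), Clu, clusterin, fell by -1.01 (SE 0.06) and Cd44, the hyaluronan receptor, rose by 1.0 (SE 0.11). Clu and Cd44 stood at the 2-fold line: Clu gave -0.97 without EGFP replicate 2 or Mkl1 replicate 2, and Cd44 gave 0.84 without EGFP replicate 1 and 0.91 without Mkl1 replicate 2. The other probes of Cd44 gave 0.40 to 0.85.

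Of 44 keratins, other filaments and epithelial junction genes 6 rose and 1 fell (15.9%, against 3.84% of all genes, median 0.19). Krt20, a keratin of intestinal and urothelial surface cells, read -2.05 and -1.87 against -0.10 and -0.06, a change of 1.88 (SE 0.09, adjusted p = 4.99e-05). Dsp, the desmosomal plaque protein, was higher by 1.37 (SE 0.11) and Cldn6, a tight junction protein, by 1.27 (SE 0.16). Nes, Krt8 and Pkp2 were the others, and Krt15 was lower by -1.08.

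Of 32 potassium channel subunits 4 rose and 2 fell (18.8%, against 3.84% of all genes, median 0.19). Under normexp 0 rose and under quantile normalization 7. Kcnmb1, the β subunit of the large-conductance channel in smooth muscle, was at least 2.73-fold higher. Kcnk3, named after its value was seen, was at least 2.44-fold higher. Both were below background on both EGFP arrays and entered the test through the Mkl1 arrays alone, so the number of rises follows in part from the filter. Kcnf1, a silent subunit, was higher by 1.45 (SE 0.16) and by 0.73 (SE 0.12) at its other probe, and Kcnt2, a sodium-activated channel, was lower by -1.61 (SE 0.16).

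Genes of hypoxia and glycolysis, which supply and signal energy metabolism at low oxygen, shifted as a broad and small change. Of 34 tested 30 had a positive change (median 0.38), and 3 rose past 2-fold (8.82%, against 3.84% of all genes). At an adjusted p under 0.05 alone 21 were higher and 0 lower, against 2777 and 1769 of all 15691 genes. Adm, the vasoactive peptide adrenomedullin, read -2.16 and -1.31 in EGFP and -0.13 and -0.02 in Mkl1, a change of 1.66 (SE 0.25). Pfkfb3, an activator of glycolysis, read 0.29 and 0.70 against 2.01 and 2.07, a change of 1.54 (SE 0.14).

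Ndrg1, a hypoxia-induced gene, was higher by 1.06 (SE 0.22), a call lost without EGFP replicate 1 (0.76) and without either Mkl1 array (adjusted p = 0.0567 and 0.0857). Below 2-fold, Slc2a1, the main glucose transporter, was higher by 0.91 (adjusted p = 0.000238) and Hk2, a hexokinase, by 0.53 (adjusted p = 0.0163), whereas Gapdh gave 0.09 (adjusted p = 0.373). Median centring gave 6 rises past 2-fold. The list median was 0.28 without EGFP replicate 1 and 0.49 without EGFP replicate 2.

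Among interferon-stimulated genes the differences were small. None of 43 passed the test at 2-fold (2 fell without EGFP replicate 2), 33 had a negative change, and 16 were lower and 3 higher at an adjusted p under 0.05 alone (median -0.33). Examples were Ifit1, with -0.84 (adjusted p = 0.0267), and Irgm2, with -0.71 (adjusted p = 0.00321). The medians of both lists kept their sign under each scaling tried.

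Several other lists had 0 or 1 call, where the 3.84% called over all genes would amount to few genes in lists of this size, so these counts lie near the background. No gene changed past 2-fold among 44 cell cycle genes (median 0.05, and -0.02 under quantile normalization, with 3 higher without EGFP replicate 2), 34 sterol and fatty acid synthesis genes (-0.13, and 0.09 under median centring) or 30 genes of the unfolded protein response (0.11). At an adjusted p under 0.05 alone these lists had 6 higher and 3 lower, 1 and 9, and 2 and 1. Of 22 p53 targets only Trp53inp1 was called, lower by -1.07 (SE 0.13), and this was lost without EGFP replicate 1 (-0.90) and Mkl1 replicate 2 (-0.96). Its other probe gave -0.33. Of the 22, 9 were higher and 2 lower at an adjusted p under 0.05 alone (median 0.18), and median centring gave 2 rises and 0 falls past 2-fold. Of 39 oxidative stress genes only Sod3, extracellular superoxide dismutase, was called, lower by -1.67 (SE 0.26). Of 20 pluripotency genes only Dppa2 was called. It was at least 2.14-fold higher, and the call was lost without EGFP replicate 1 and without Mkl1 replicate 1 (adjusted p = 0.0546).

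The arrays labelled Srf, on the same slide, were set directly against the Mkl1 arrays. The brighter Srf probe was lower there than in EGFP by -1.40, so the name follows the label only. Of 35723 probes 1787 (5%) differed, 621 higher and 1166 lower in Mkl1. For a group of genes that fell with Mkl1 the effects against EGFP had opposite signs. The comparisons share the EGFP arrays, and the direct test does not use them.

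Dkk1 changed by -2.41 with Mkl1 and by 2.50 (SE 0.09) on the arrays labelled Srf, a direct difference of -4.92 (adjusted p = 5.7e-07). Fap changed by -2.21 and 1.61 (direct -3.82, adjusted p = 1.94e-05), and Pde1a by -2.06 and 1.68 (direct -3.74, adjusted p = 9.34e-07). Sparcl1, Meox2, Dcn, Bmp4, Clu and Lama2 behaved alike, with direct differences of -3.46 to -2.11. Serpinb2 went the other way, with 4.74 for Mkl1 and -1.19 for Srf (direct 5.93, adjusted p = 3.63e-06), and so did Fhl2 with 1.86 and -0.75.

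For other genes no difference between the Mkl1 and Srf arrays was detected. Lox changed by -2.04 and -2.03 (direct -0.01, adjusted p = 0.978), Ereg by 1.45 and 1.38 (direct 0.07, adjusted p = 0.815) and Cdc42ep3 by 1.78 and 1.83 (direct -0.05, adjusted p = 0.733). Nkx2-5 rose more on the arrays labelled Srf, by 3.63 against 2.55 (direct -1.08, adjusted p = 0.000656).

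**Figure D5:**
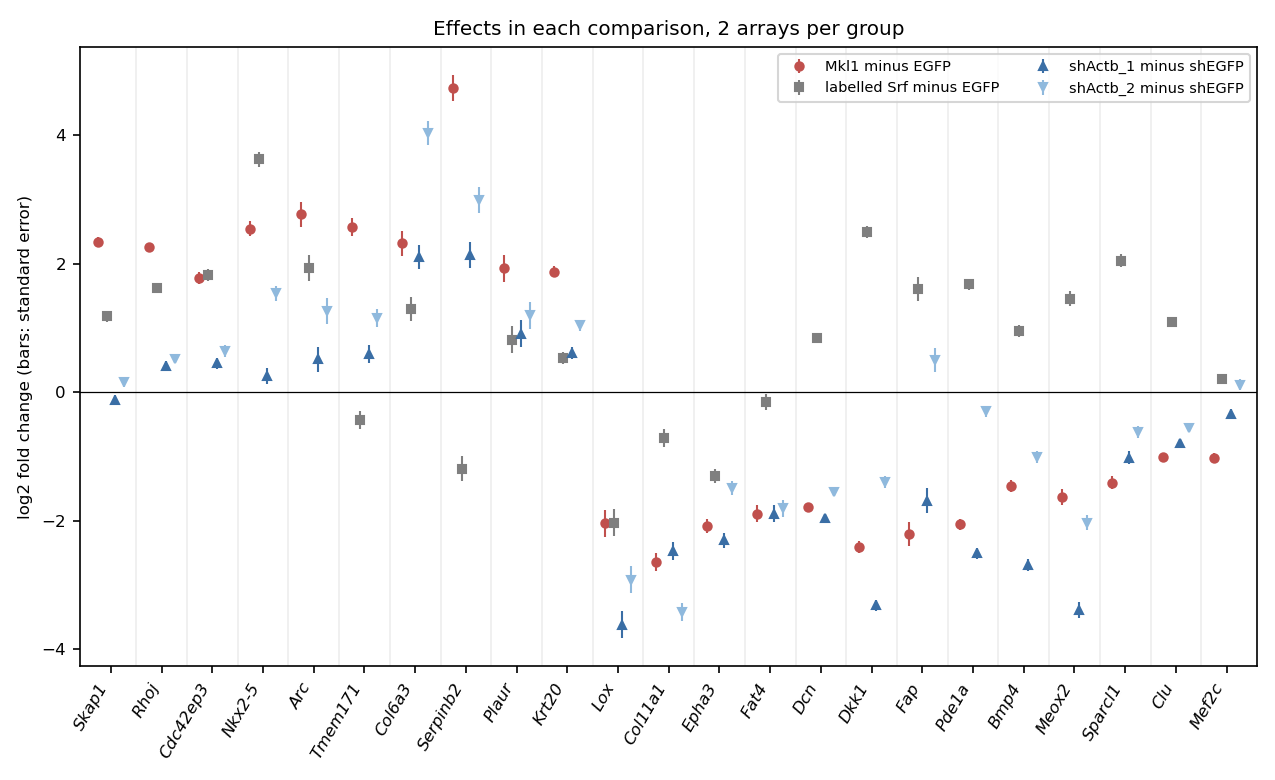
Log2 fold change (y axis) with its standard error for named genes in 4 comparisons: Mkl1 and the arrays labelled Srf against EGFP, and each Actb hairpin against shEGFP. Dkk1 stands at -2.41 with Mkl1 and 2.50 on the arrays labelled Srf, and Skap1 at 2.34 with Mkl1 and between -0.12 and 0.16 with the hairpins.

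Knockdown of Actb shares no array with the Mkl1 comparison. It lay on other slides, with shActb_2 on a different slide from its control. The test of the difference between the effects found 345 of 38980 probes (0.885%), 216 with a higher value for Mkl1 and 129 with a lower one. Skap1 changed by 2.34 with Mkl1 and by -0.12 and 0.16 with shActb_1 and shActb_2 (adjusted p of the difference = 0.000718). Rhoj changed by 2.26 against 0.41 and 0.52 (adjusted p = 0.000718), and Cdc42ep3 by 1.78 against 0.45 and 0.64 (adjusted p = 0.0102).

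Nkx2-5 changed by 2.55 against 0.25 and 1.54 (adjusted p = 0.0102), Tmem171 by 2.58 against 0.59 and 1.16 (adjusted p = 0.0111) and Arc by 2.77 against 0.51 and 1.27 (adjusted p = 0.0215). Serpinb2 and Krt20 also responded more with Mkl1, with differences of 2.18 and 1.06 (adjusted p = 0.0138 and 0.0113). For Fhl2, Tox and Mef2c the differences of 0.62, -0.90 and -0.91 were under 2-fold (adjusted p = 0.0151, 0.0415 and 0.0113), so they are not among the 345. Lama2 changed by -1.22 against -0.24 and 0.04 (adjusted p = 0.0443). Meox2 differed the other way, with -1.63 for Mkl1 against -3.39 and -2.03 (adjusted p = 0.0221).

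For some matrix, adhesion and guidance genes, chosen after their values were seen, no difference between the effects was detected. Dcn changed by -1.79 with Mkl1 and by -1.96 and -1.55 with the hairpins (difference -0.04, adjusted p = 0.846), Fat4 by -1.89 against -1.89 and -1.81 (difference -0.04, adjusted p = 0.923) and Epha3 by -2.08 against -2.31 and -1.49 (difference -0.18, adjusted p = 0.557). Col11a1 changed by -2.64 against -2.47 and -3.43 (difference 0.31, adjusted p = 0.415). Fap did differ, by -1.61 (adjusted p = 0.0293), but its hairpin values of -1.69 with shActb_1 and 0.50 with shActb_2 differed in sign. Lox gave a difference of 1.23 that missed the threshold (adjusted p = 0.0673). A difference that missed the threshold does not show that the effects are equal.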

How the data were processed

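Arrays were grouped by their titles. The authors scanned 1-colour arrays with Feature Extraction 11.5.1.1 and deposited, per the file headers, background-subtracted intensity values, not yet scaled between arrays. A log2 table was also deposited by the authors; it held percentile-shifted values of the same arrays and was used as an alternative. The files hold 62976 features an array, while the labels name a format with fewer.

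Control and outlier spots were dropped, spots of a probe averaged, log2 taken and the 75th percentile of each array subtracted. One limma 3.58.1 model in R 4.3.3 covered all 12 arrays (lmFit, eBayes, a mean for each group, two-sided, Benjamini-Hochberg adjustment over all probes tested), because 2 arrays per group give an imprecise estimate of the spread. Tested probes were well above background on both arrays of Mkl1 or EGFP. Calls required an adjusted p under 0.05 and over 2-fold. The study's methods state no test for arrays. Genes with several probes were represented by the brightest on average. The fit was tested on simulated data.

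Named genes were Mkl1, Srf and 4 known targets, the 15 largest changes each way outside the smooth muscle list, the 5 largest bounds each way and up to 3 called members per list. Some genes and 1 list are not reported here. Members and lists were chosen with earlier results of these data known. Lists were described by counts and medians. Alternatives covered background correction (normexp on the median spot signal, offset 50, because the mean was not in the files), scaling, the dim probe filter, the arrays in the fit, a replicate block, variance estimation and thresholds.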

Additional observations from a re-analysis of the deposited data

Results flagged for a closer look

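At 345 probes the Mkl1 effect differed from the Actb knockdown effect by the test of the difference itself, so that the groups differed under the same kind of contrast, and the experiments lay on different slides. Each had its own control, which for shActb_2 lay on another slide.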

How the results depend on the processing

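The cause of the shifts that follow was not tested unless the setting itself shows it. With normexp background correction 367 probes and 272 genes changed, and with the 4 compared arrays only 126 and 87. With the replicate block in that fit 7 probes and 7 genes changed. The arrays share only a number: deviations of same-numbered arrays correlated at 0.09 over 2 pairs. At an adjusted p under 0.05 only 7439 probes and 4546 genes passed, and at a fold change over 2 only 1705 probes. Leaving out 1 array gave 679 to 1801 changed probes and 450 to 817 changed genes, the highest without EGFP replicate 2. For Mkl1 against the arrays labelled Srf the count was 903 with normexp. For the Mkl1 against the Actb knockdown effect it was 153 with normexp, 138 without the filter on dim probes, 184 with the first hairpin alone and 1507 with the second. Among 106 named genes 0 changed sign under any alternative. All but Mkl1 had been called in the main fit and the alternatives reuse its arrays, so stable signs say little. With the replicate block 98 of the 106 lost their call, and with the 4 compared arrays only 64. Precision is limited by the number of arrays, and for dim genes by the signal over background.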

Other observations

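The values in this paragraph were chosen after they were seen. Of 4 Slitrk genes tested, neuronal membrane proteins that shape synapses, 3 were lower in Mkl1 and 0 higher, with a median log2 change of -1.3, and 1 of these, Slitrk1, passed the filter through the EGFP arrays alone. Of 35 keratin genes tested 3 were higher and 1 lower, with a median of 0.17. Some genes differed between the effects of Mkl1 and of Actb knockdown, with values of opposite sign, and the difference alone was tested. Pdlim3, a muscle protein that binds α-actinin, changed by 1.93 with Mkl1 and by -1.05 and -0.47 with shActb_1 and shActb_2 (limma, adjusted p of the difference = 0.0056). Nppb, the natriuretic peptide BNP, changed by 1.8 against -0.13 and -0.11 (adjusted p = 0.0247). Wnt6 changed by -1.18 against 0.3 and 0.7 (adjusted p = 0.0106), Krt15 by -1.08 against 0.27 and 1.69 (adjusted p = 0.0102) and Syt1, a synaptic vesicle calcium sensor, by -1.02 against 0.77 and 0.3 (adjusted p = 0.0113).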
